A study of Homo sapiens with 26 samples.

Results

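The comparison described here set NCCIT cells transfected with siRNA against DNMT1 directly against NCCIT cells transfected with siRNA against DNMT3B, the maintenance against a de novo DNA methyltransferase. It rests on 4 of the 26 arrays of the study, 2 of the group siDNMT1 and 2 of the group siDNMT3B, and on log2 differences of all 18417 genes that a single gene symbol names on the array. NCCIT is a human embryonic carcinoma line, a germ cell tumour line that grows in culture and keeps many features of pluripotent cells. The study holds 13 groups of 2 Affymetrix Human Gene 1.0 ST arrays each, which read total RNA of cells in which DNMT1 or one of its relatives DNMT3A, DNMT3B and DNMT3L was depleted singly or in combination. Both groups compared received siRNA against 1 enzyme only, siDNMT1 against DNMT1 and siDNMT3B against DNMT3B. A second pair of groups repeats the exchange of DNMT1 siRNA for DNMT3B siRNA in cells that all received DNMT3A siRNA as well, siD1+3A against 3A+3B. The group siNTC-1 received control siRNA and serves as the common level. All cells had serum and the same transfection reagent, and neither the time after transfection nor the siRNA dose is given in the sources used here. The labels call the 2 arrays of a group rep1 and rep2 and do not say whether they are separate cultures. Standard errors and p-values use the spread between such duplicates, pooled over all 26 arrays of the 13 groups with 13 residual degrees of freedom. That spread may be technical. Levels are the deposited values on a log2 scale, differences are log2 differences with their standard error, and a gene is called where the Benjamini-Hochberg adjusted p of the limma fit over all genes was under 0.05.

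DNMT1 copies methyl groups at CpG sites onto the new DNA strand after replication, so that a methylated site stays methylated when cells divide. DNMT3B, together with DNMT3A, places methyl groups on CpG sites that carry none, and it is strongly expressed in pluripotent cells. DNMT3L has no catalytic activity of its own and stimulates DNMT3A and DNMT3B. Genes of the germ line, among them those of the pathway that makes piRNAs and silences transposons, are known for promoters that are methylated in somatic cells.

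Markers of pluripotent cells were high, as the label of the line calls for. SOX2, LIN28A and DPPA4, transcription and RNA-binding factors of pluripotent cells, lay between 11.42 and 12.39 log2 units on the siDNMT1, siDNMT3B and siNTC-1 arrays, where the median gene lay at 6.71, 6.71 and 6.68. The summed level of 10 blood and stromal markers was 8.02 to 8.12 in siDNMT1, 8.0 to 8.13 in siDNMT3B and 8.10 to 8.11 in siNTC-1 on the log2 scale, and the blood cell marker PTPRC was near 4 on every one of these arrays. The duplicates correlated at r = 0.998 across genes in both siDNMT1 and siDNMT3B. On the first principal component of all genes siDNMT1, siDNMT3B, siDNMT3L and siNTC-1 lay together, between -26.6 and -23.3, and the arrays of the other 9 groups, siD1+3A, 3A+3B and the second control siNTC-2 among them, between 3.4 and 20.2. Each of the 2 exchanges therefore compares arrays of the same side, and siNTC-1 is the control used here. A list of 24 ribosomal protein genes, kept as a sign of RNA quality, had 8 members called higher and 0 called lower in siDNMT1 against siDNMT3B, with a median difference of 0.15. That is 33.3% higher and 0% lower, against 8.49% and 9.79% of all genes. The summed level of the list was 17.06 and 17.09 in siDNMT1, 16.95 and 16.96 in siDNMT3B, and 17.04 and 17.09 in siNTC-1. The part of this in the results was not tested. The number called was 5 without siDNMT1 replicate 1, 2 without siDNMT1 replicate 2, and 4 without either replicate of siDNMT3B. In RNA from whole cultures, fewer cells that express a gene and less of its RNA per cell cannot be told apart.

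Each siRNA lowered its own target. DNMT1 in siDNMT3B (0.06, adjusted p = 0.488) and DNMT3B in siDNMT1 (0.08, adjusted p = 0.403) did not pass the test against siNTC-1. DNMT1 stood at 8.71 and 8.70 log2 units in siDNMT1, against 10.14 and 10.22 in siDNMT3B and 10.05 and 10.19 in siNTC-1. It was therefore at 36.0% of its siDNMT3B level, a log2 difference of -1.47 ± 0.05 (standard error, n = 2 arrays a group; adjusted p = 1.6e-11). DNMT3B stood at 12.09 and 12.02 in siDNMT1, against 10.98 and 10.99 in siDNMT3B and 11.91 and 12.05 in siNTC-1, a log2 difference of 1.07 ± 0.06 (adjusted p = 2.7e-09). The level left in siDNMT3B was 50.3% of that in siNTC-1. The arrays of the groups did not overlap for either gene. The other 2 methyltransferase genes did not pass the test between the groups: DNMT3A differed by 0.09 ± 0.07 (adjusted p = 0.43) and DNMT3L by -0.09 ± 0.12 (adjusted p = 0.642). DNMT3L stood at 5.47 and 5.66 in siDNMT1, 5.66 and 5.65 in siDNMT3B, and 5.76 and 6.17 in siNTC-1, so that both depletions lay below the control. The difference from siNTC-1 passed in siDNMT1 (-0.40 ± 0.12, adjusted p = 0.0203) and not in siDNMT3B (-0.31 ± 0.12, adjusted p = 0.0586). The DNMT3L values rest on single arrays: without siNTC-1 replicate 2 they were -0.20 (adjusted p = 0.268) in siDNMT1 and -0.11 (adjusted p = 0.562) in siDNMT3B, and without siNTC-1 replicate 1 they were -0.61 (adjusted p = 0.00231) in siDNMT1 and -0.52 (adjusted p = 0.00521) in siDNMT3B. Without siDNMT1 replicate 1 the DNMT3L call in siDNMT1 was lost too (-0.31, adjusted p = 0.165). Under its own siRNA, in siDNMT3L, it stood at 5.45 and 5.48. Of the 12 enzymes and cofactors of DNA methylation and demethylation, 2 were called higher and 2 lower in siDNMT1, with a median of -0.01. That is 16.7% each way, against 8.49% higher and 9.79% lower over all genes. The siRNA targets themselves, DNMT3B higher and DNMT1 lower, are among these calls. Beside the targets, TET3, which oxidises methylcytosine, was lower by 0.42 (a log2 difference of -0.42 ± 0.08, adjusted p = 0.00189). TRDMT1, a methyltransferase of transfer RNA, differed by 0.20 ± 0.07 with an adjusted p of 0.0474 and lost its call without any of the 4 arrays, with values of 0.16 without siDNMT1 replicate 1, 0.24 without siDNMT1 replicate 2, 0.21 without siDNMT3B replicate 1 and 0.19 without siDNMT3B replicate 2. UHRF1, which brings DNMT1 to replicated DNA, differed by 0.11 (adjusted p = 0.426).

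Across all genes the differences were small and ran in both directions. The median log2 difference was -0.01, and the lower and upper 1% of genes began at -0.49 and 0.54. At an adjusted p under 0.05, 1563 genes were called higher in siDNMT1 (8.49% of those tested) and 1803 lower (9.79%), together 3366 or 18.3%. With the spread taken from only the groups compared, 543 genes were called. Genes called with a difference of 1.5-fold or more numbered 239 (1.30%). Of these 239, 148 were higher by 1.5-fold or more (0.804%) and 91 lower (0.494%), and for all of them the siDNMT1 arrays lay beyond the siDNMT3B arrays. The arrays of the groups did not overlap for 54.3% of all genes. Against siNTC-1, 19.8% of genes were called in siDNMT1 and 24.2% in siDNMT3B, comparisons that share the control arrays. A log2 difference of 1 or more was found for 19 genes, and of -1 or less for 7. The number called fell to 2189 without siDNMT1 replicate 1, whereas the number at 1.5-fold stayed between 252 and 302 when an array was left out.

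**Figure D1:**
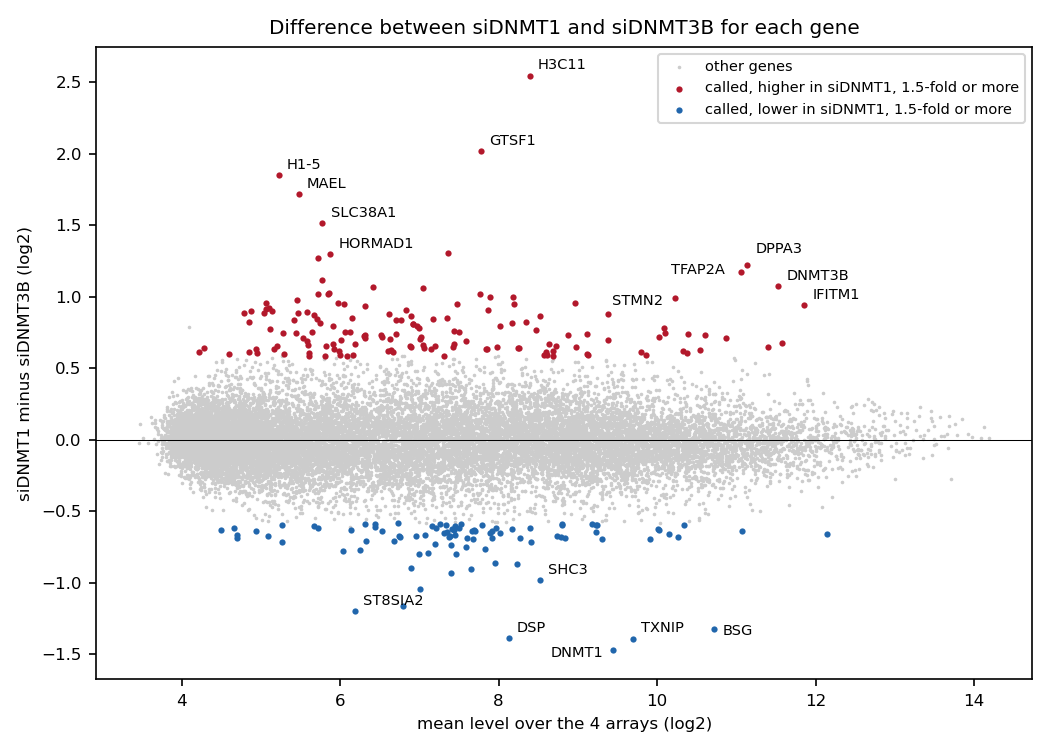
Each point is a gene, with its mean log2 level over the 2 siDNMT1 and 2 siDNMT3B arrays on the horizontal axis and the log2 difference siDNMT1 minus siDNMT3B on the vertical axis. Red points are the 148 genes called higher in siDNMT1 by 1.5-fold or more and blue points the 91 called lower; H3C11 at 2.54 and GTSF1 at 2.02 stand above all others, and DNMT1 at -1.47 is the lowest.

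Of the 24 gene lists, that of germ cell genes had the highest share of members called higher. The lists were chosen with earlier results of these data known, so this rank is a description and not a test. Of 30 genes of the piRNA pathway and of germ cells, 13 were called higher in siDNMT1 and 0 lower, with a median difference of 0.18, against 8.49% higher, 9.79% lower and a median of -0.01 over all genes. The promoters of 4 of them are shown because these genes were all called higher and their start regions hold from few to many CpG sites. The sequences run from 250 bases before to 50 bases after the gene start and come from RefSeq (GRCh38.p14), with CpG sites in capitals. GTSF1 lies on the minus strand at chr12:54473553-54473852, MAEL on the plus strand at chr1:166975332-166975631, DPPA3 on the plus strand at chr12:7711183-7711482 and TDRD1 on the plus strand at chr10:114179037-114179336.
GTSF1: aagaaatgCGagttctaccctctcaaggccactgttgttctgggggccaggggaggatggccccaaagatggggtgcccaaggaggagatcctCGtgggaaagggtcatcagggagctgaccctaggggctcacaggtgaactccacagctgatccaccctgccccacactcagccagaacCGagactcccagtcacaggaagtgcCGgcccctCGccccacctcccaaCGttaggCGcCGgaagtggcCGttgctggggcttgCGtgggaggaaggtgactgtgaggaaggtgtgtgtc
MAEL: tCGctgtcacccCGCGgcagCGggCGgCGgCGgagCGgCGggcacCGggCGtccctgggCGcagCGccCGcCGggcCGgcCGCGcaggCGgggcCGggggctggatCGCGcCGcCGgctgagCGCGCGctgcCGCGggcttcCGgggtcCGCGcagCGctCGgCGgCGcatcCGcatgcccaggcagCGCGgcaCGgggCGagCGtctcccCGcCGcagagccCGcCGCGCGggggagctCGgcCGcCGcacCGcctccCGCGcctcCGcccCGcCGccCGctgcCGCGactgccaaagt
DPPA3: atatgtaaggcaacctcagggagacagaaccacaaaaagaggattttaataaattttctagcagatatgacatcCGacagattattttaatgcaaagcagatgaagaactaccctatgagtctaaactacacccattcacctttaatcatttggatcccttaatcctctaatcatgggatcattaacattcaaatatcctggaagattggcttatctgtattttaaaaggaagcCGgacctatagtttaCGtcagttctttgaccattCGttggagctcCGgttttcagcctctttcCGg
TDRD1: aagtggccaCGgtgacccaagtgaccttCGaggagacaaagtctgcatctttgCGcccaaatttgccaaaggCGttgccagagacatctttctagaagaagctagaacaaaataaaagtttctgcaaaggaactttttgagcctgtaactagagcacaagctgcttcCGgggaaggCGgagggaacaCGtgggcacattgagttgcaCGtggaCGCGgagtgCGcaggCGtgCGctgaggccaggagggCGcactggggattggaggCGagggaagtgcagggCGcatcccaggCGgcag
These 300 bases hold 10 CpG sites in GTSF1, 60 in MAEL, 6 in DPPA3 and 17 in TDRD1, and the ratio of observed to expected CpG was 0.35, 1.12, 0.55 and 0.75 in that order. The median over all genes with a promoter in the table was 23 sites and a ratio of 0.77. The letters CACGTG, read on both strands, occur in the TDRD1 window and in none of the other 3, and in 8.88% of all promoters. The letters GGCGGGAA, likewise on both strands, occur in none of the 4 and in 4.43% of all promoters.

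GTSF1, a zinc finger protein that works with PIWI proteins in piRNA silencing, stood at 8.82 and 8.76 in siDNMT1, against 6.81 and 6.74 in siDNMT3B and 7.16 and 6.99 in siNTC-1. Its level was 4.05-fold that of siDNMT3B (log2 difference 2.02 ± 0.08, adjusted p = 1.6e-11). The siDNMT1 arrays stood above both other groups, and siDNMT3B was itself below siNTC-1 by 0.30 (a difference of -0.30 ± 0.08, adjusted p = 0.0094). MAEL, the piRNA factor maelstrom, stood at 6.33 and 6.34 in siDNMT1, 4.64 and 4.60 in siDNMT3B, and 4.69 and 4.53 in siNTC-1. Here siDNMT3B and siNTC-1 overlapped and siDNMT1 was 3.28-fold higher than siDNMT3B (1.71 ± 0.11, adjusted p = 1.5e-08). DPPA3, also called STELLA, a factor of oocytes and early embryos that acts on DNA methylation, was already strongly expressed. It stood at 11.73 and 11.76 in siDNMT1, 10.51 and 10.54 in siDNMT3B, and 10.63 and 10.72 in siNTC-1, a difference of 1.22 ± 0.05 between the siRNAs (adjusted p = 1.6e-11). In the second control, siNTC-2, DPPA3 averaged 11.93, above its siDNMT1 level. TDRD1, a tudor protein that binds PIWI proteins, stood at 5.60 and 5.59 in siDNMT1, 4.73 and 4.67 in siDNMT3B, and 4.69 and 4.62 in siNTC-1 (0.90 ± 0.07, adjusted p = 2.9e-07). For all 4 genes the siDNMT1 arrays stood clear of the siDNMT3B arrays.

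The other 9 germ cell genes called higher differed by 0.28 to 0.67. DAZL, a translational regulator of germ cells, stood at 6.44 and 6.60 in siDNMT1 and 5.80 and 5.90 in siDNMT3B (0.67 ± 0.11, adjusted p = 0.000281). Its siNTC-1 arrays, at 6.43 and 6.28, lay with siDNMT1 rather than with siDNMT3B, and siDNMT3B was lower than siNTC-1 by 0.50 (a difference of -0.50 ± 0.11, adjusted p = 0.00212). The RNA helicase DDX4 differed by 0.54 ± 0.09 and the PIWI protein PIWIL2 by 0.44 ± 0.08. These were, with RNF17, TDRD9, TDRD12, TEX15, BRDT and BOLL, the members that passed. The 17 members that did not pass include PIWIL1 (0.17, adjusted p = 0.181), PIWIL4 (-0.13, adjusted p = 0.294) and MOV10L1 (0.05, adjusted p = 0.632), which also act in the piRNA pathway. Most of the list lay near the floor of the array: its median level was 4.92 and 4.90 in siDNMT1, 4.69 and 4.69 in siDNMT3B, and 4.70 and 4.62 in siNTC-1, where 25% of all genes lay below 4.89 to 4.92. With the 40% dimmest genes left out, 4 members were called. Over all genes kept by this filter, 3401 were called in either direction. The number of members kept is not given here, so these 4 cannot be compared with the share over all genes.

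Of 18 genes of meiotic chromosomes, 5 were called higher and 0 lower in siDNMT1, with a median of 0.15, against 8.49% and 9.79% of all genes. Against siNTC-1 the list had 4 members higher and 1 lower in siDNMT1 (median -0.03). In siDNMT3B it had 0 higher and 5 lower (median -0.15). Over all genes 9.26% were higher and 10.6% lower in siDNMT1 against siNTC-1 (median -0.03). In siDNMT3B against siNTC-1 these shares were 11.8% and 12.4% (median -0.02). By the medians of the list siDNMT3B lay below siNTC-1 and siDNMT1 near it. HORMAD1, a protein of the meiotic chromosome axis, stood at 6.52 on both siDNMT1 arrays, against 5.18 and 5.27 in siDNMT3B and 5.30 and 5.22 in siNTC-1 (1.30 ± 0.16, adjusted p = 1.8e-05). STAG3, a subunit of meiotic cohesin, stood at 6.41 and 6.31 in siDNMT1, 5.75 and 5.58 in siDNMT3B, and 5.83 and 5.80 in siNTC-1 (0.69 ± 0.10, adjusted p = 8.2e-05). In both genes siDNMT1 stood alone and the other groups lay close together. SYCP2 and SYCP3, which build the synaptonemal complex between paired chromosomes, differed by 0.31 ± 0.05 and 0.39 ± 0.10, and TEX11 by 0.36 ± 0.08. SPO11, which cuts DNA to start recombination (0.11, adjusted p = 0.277), and the recombinase DMC1 (-0.07, adjusted p = 0.53) did not pass. Of 19 cancer-testis antigens, genes of the testis that many tumours express, 4 were called higher and 0 lower, with a median of 0.08. Their medians against siNTC-1 were -0.01 in siDNMT1 and -0.15 in siDNMT3B. SSX1 stood at 7.59 and 7.05 in siDNMT1, 6.40 and 6.62 in siDNMT3B, and 6.60 and 6.32 in siNTC-1 (0.81 ± 0.16, adjusted p = 0.00223). Without siDNMT1 replicate 1 its difference was 0.54 with an adjusted p of 0.0523. CSAG1, MAGEA1 and CT83 differed by 0.31 to 0.56, and the count of 4 was 1 without siDNMT1 replicate 1, 1 without siDNMT3B replicate 1 and 2 without siDNMT3B replicate 2.

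The largest difference of all was in a histone gene. H3C11 stood at 9.65 and 9.68 in siDNMT1, against 6.96 and 7.28 in siDNMT3B and 7.09 and 6.90 in siNTC-1, 5.83-fold higher in siDNMT1 than in siDNMT3B (2.54 ± 0.11, adjusted p = 6.8e-11). H1-5, a linker histone, stood at 6.11 and 6.19 in siDNMT1, 4.39 and 4.22 in siDNMT3B, and 4.47 and 4.42 in siNTC-1 (1.85 ± 0.12, adjusted p = 1.5e-08). For both genes siDNMT1 stood apart, and siDNMT3B did not pass against siNTC-1 (0.12 and -0.14). Of the 41 replication-dependent histone genes, which supply new DNA with histones in S phase, 8 were called higher and 12 lower, with a median of 0.01. That is 19.5% and 29.3%, against 8.49% and 9.79% of all genes. The higher ones were H3C11, H1-5, H4C6 (0.88), H4C13 (0.96), H1-1 (1.02), H2BC14 (0.41), H2BC3 (0.46) and H3C3 (0.39). Those lower included H2BC11 (-0.58), H2BC5 (-0.65), H2AC17 (-0.69) and H4C9 (-0.64). H2BC11 stood at 8.82 and 8.96 in siDNMT1, 9.43 and 9.52 in siDNMT3B, and 8.71 and 8.82 in siNTC-1, so that the siDNMT3B arrays were the ones apart. These genes are near-identical copies of each other, probes may read several of them, and which copy a value belongs to is uncertain.

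Other genes among the 15 largest rises were also higher in siDNMT1 than in siNTC-1. ZFP57, a zinc finger protein that keeps imprinted regions methylated in early embryos, stood at 6.21 and 6.44 in siDNMT1, 5.30 and 5.12 in siDNMT3B, and 5.32 and 5.22 in siNTC-1 (1.12 ± 0.10, adjusted p = 1.1e-06). SLC38A1, a glutamine transporter, stood at 6.68 and 6.38 in siDNMT1, 5.07 and 4.97 in siDNMT3B, and 4.59 and 4.72 in siNTC-1 (1.51 ± 0.09, adjusted p = 6.6e-09). In SLC38A1 all 3 groups were apart, and siDNMT3B exceeded siNTC-1 by 0.36 ± 0.09. SEMA4A, a semaphorin, differed by 1.06 ± 0.08, HPGD, which breaks down prostaglandins, by 1.02 ± 0.10, and GRIA1, a glutamate receptor subunit, by 1.07 ± 0.12. For these 3 genes siDNMT3B did not pass the test against siNTC-1, with differences of 0.19, 0.02 and 0.29. CLEC4D, a lectin of myeloid cells, stood at 6.35 and 6.34 in siDNMT1, 5.05 and 5.11 in siDNMT3B, and 5.47 and 5.60 in siNTC-1 (1.27 ± 0.09, adjusted p = 4.7e-08). Here siNTC-1 lay between the others.

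**Figure D2:**
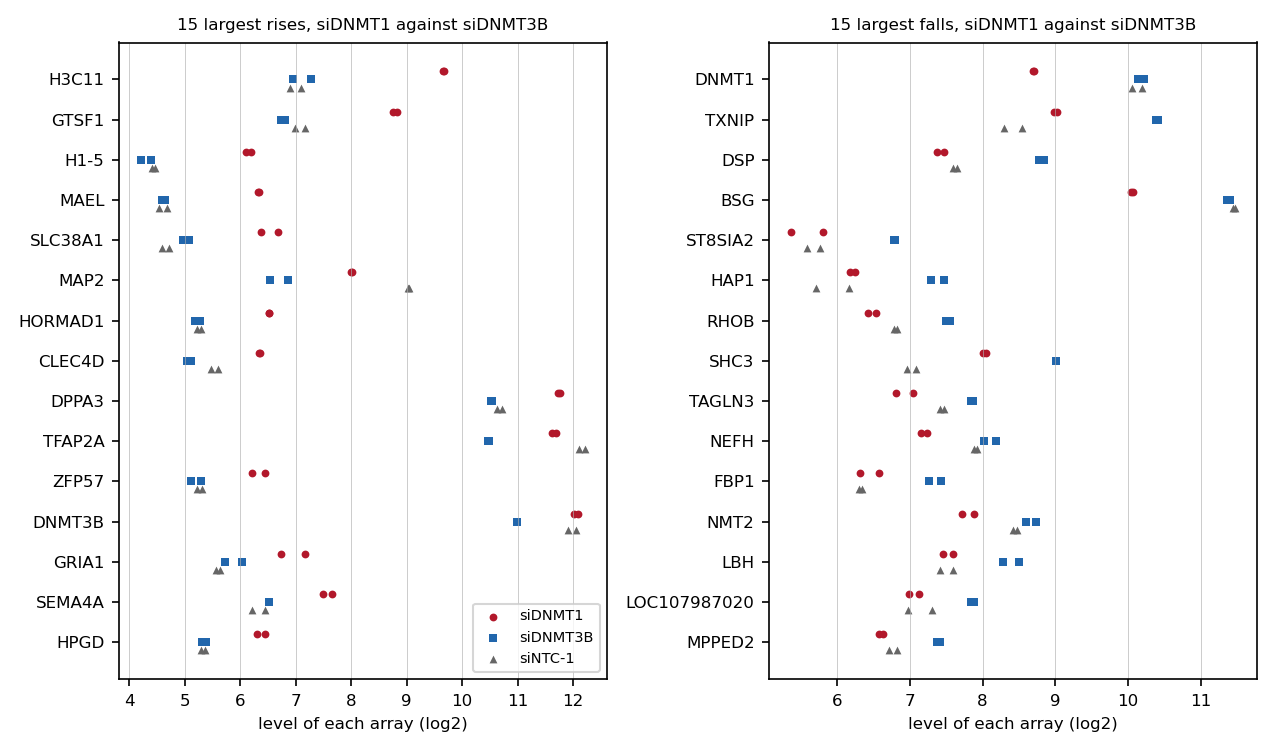
The log2 level on each array is shown for the 15 largest rises (left) and 15 largest falls (right) in siDNMT1 against siDNMT3B, with siDNMT1 as red circles, siDNMT3B as blue squares and siNTC-1 as grey triangles. Genes were eligible only where the siDNMT1 arrays lay beyond the siDNMT3B arrays, so these are apart in every gene by choice. siNTC-1 lies with siDNMT3B for genes such as MAEL and BSG, and beyond siDNMT1 for MAP2 and TFAP2A.

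A second set of rises had the opposite relation to the control: both depletions lay below siNTC-1, or siDNMT3B alone did. MAP2, a microtubule protein of neurons, stood at 7.99 and 8.02 in siDNMT1, 6.54 and 6.86 in siDNMT3B, and 9.02 and 9.05 in siNTC-1. The difference between the siRNAs was 1.31 ± 0.09 (adjusted p = 1.7e-08), while siDNMT1 fell below siNTC-1 by 1.03 and siDNMT3B by 2.33 log2 units. TFAP2A, a transcription factor of neural crest and surface ectoderm, stood at 11.69 and 11.62 in siDNMT1, 10.49 and 10.47 in siDNMT3B, and 12.10 and 12.21 in siNTC-1 (1.17 ± 0.05, adjusted p = 6.8e-11). STMN2, a microtubule regulator of neurons, stood at 10.71 and 10.72 in siDNMT1, 9.71 and 9.75 in siDNMT3B, and 10.76 and 10.85 in siNTC-1 (0.99 ± 0.04, adjusted p = 6.8e-11). In STMN2 the siDNMT1 arrays did not pass against siNTC-1 (-0.09, adjusted p = 0.177). IFITM1, a membrane protein that restricts virus entry, had the same order, with 12.29 and 12.38 in siDNMT1, 11.41 and 11.38 in siDNMT3B, and 12.39 and 12.32 in siNTC-1 (0.94 ± 0.05, adjusted p = 4e-10). Of the 29 neural and neural crest genes, 5 were called higher and 3 lower, with a median of 0.03. That is 17.2% and 10.3%, against 8.49% and 9.79% of all genes. The semaphorin receptor NRP2 (0.75 ± 0.09) and the transcription factor SNAI2 (0.49 ± 0.11) completed the higher ones, and TFAP2C (-0.29), DCX (-0.31) and NCAM1 (-0.30) were lower.

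Pluripotency genes went both ways, with 5 of 24 called higher, 4 lower and a median of -0.02. That is 20.8% and 16.7%, against 8.49% and 9.79% of all genes. OTX2, a transcription factor of the primed state and of the forebrain, stood at 10.66 and 10.69 in siDNMT1, 10.03 and 10.12 in siDNMT3B, and 11.40 and 11.39 in siNTC-1 (0.61 ± 0.05, adjusted p = 2.3e-07). Again siDNMT3B was the lowest and siNTC-1 the highest of the groups. DPPA2, a chromatin factor of pluripotent and germ cells, stood at 7.38 and 7.18 in siDNMT1, 6.3 and 6.44 in siDNMT3B, and 6.63 and 6.71 in siNTC-1 (0.91 ± 0.16, adjusted p = 0.000581). PODXL, a surface sialomucin, differed by 0.65 ± 0.07, LIN28A by 0.25 ± 0.05 and TRIM71 by 0.30 ± 0.07. JARID2, a partner of the Polycomb complex, was lower in siDNMT1 (-0.29 ± 0.05), as were GDF3, TFCP2L1 and ESRRB. SOX2 differed by 0.16 (adjusted p = 0.0672). Of 17 markers of endoderm, mesoderm and trophoblast 0 were called higher and 3 lower, BMP4 (-0.35), MESP1 (-0.27) and APOA1 (-0.28), against 9.79% of all genes called lower. MESP1 and APOA1 lost their calls without siDNMT1 replicate 2 (-0.25 and -0.20) and without siDNMT3B replicate 1 (-0.24 in both).

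Among the largest falls, TXNIP and DSP were higher in siDNMT3B than in the control. TXNIP, which binds thioredoxin and restrains glucose uptake, stood at 9.02 and 8.98 in siDNMT1, 10.41 and 10.38 in siDNMT3B, and 8.30 and 8.54 in siNTC-1 (-1.39 ± 0.07, adjusted p = 5.7e-10). Both depletions exceeded siNTC-1, siDNMT1 by 0.58 and siDNMT3B by 1.97 log2 units. TXNIP also differed between the controls, with means of 8.42 in siNTC-1 and 12.2 in siNTC-2. The part of this in the differences was not tested. DSP, the desmosomal protein desmoplakin, stood at 7.38 and 7.47 in siDNMT1, 8.78 and 8.85 in siDNMT3B, and 7.59 and 7.65 in siNTC-1 (-1.39 ± 0.07, adjusted p = 1e-09). Here siDNMT3B stood alone, and siDNMT1 did not pass against siNTC-1 (-0.19, adjusted p = 0.0831). SHC3, a signalling adaptor of neurons, stood at 8.01 and 8.05 in siDNMT1, 9.01 and 9.01 in siDNMT3B, and 6.96 and 7.08 in siNTC-1 (-0.98 ± 0.09, adjusted p = 6e-07). Its level was thus above siNTC-1 in both groups. ST8SIA2, which makes polysialic acid on neural adhesion molecules (-1.20 ± 0.12), HAP1, a trafficking partner of huntingtin (-1.17 ± 0.11), FBP1, an enzyme of glucose synthesis (-0.89 ± 0.11), and LBH, a transcriptional cofactor (-0.86 ± 0.10), did not pass in siDNMT1 against siNTC-1 and were higher in siDNMT3B by 0.89 to 1.44. LOC107987020 (-0.80 ± 0.12) and MPPED2, a phosphoesterase (-0.80 ± 0.08), showed the same order with 0.72 and 0.63.

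BSG had the reverse relation. This gene encodes basigin, a surface protein that escorts lactate transporters, and it stood at 10.04 and 10.07 in siDNMT1, 11.36 and 11.40 in siDNMT3B, and 11.47 and 11.45 in siNTC-1 (-1.32 ± 0.06, adjusted p = 1.6e-10). The siDNMT1 arrays stood apart, and siDNMT3B differed from siNTC-1 by -0.08 (adjusted p = 0.406). NEFH, the heavy neurofilament chain (-0.90 ± 0.06), and NMT2, which attaches myristate to proteins (-0.87 ± 0.07), were lower in siDNMT1 than in siNTC-1 by 0.70 and 0.65 (differences of -0.70 and -0.65), while siDNMT3B was higher than siNTC-1 by 0.20 and 0.22. TAGLN3, an actin-associated protein of neurons (-0.93 ± 0.11), and RHOB, a small GTPase of endosomes (-1.05 ± 0.07), were lower than siNTC-1 in siDNMT1 and higher in siDNMT3B.

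Of 28 genes of extracellular matrix and adhesion, 4 were called higher and 10 lower in siDNMT1, with a median of -0.13, against 8.49% and 9.79% of all genes. ITGA5, the fibronectin receptor subunit, stood at 6.74 and 6.68 in siDNMT1, 7.47 and 7.54 in siDNMT3B, and 6.16 and 6.33 in siNTC-1 (-0.79 ± 0.07, adjusted p = 9.1e-07). THY1, a surface glycoprotein, stood at 10.25 and 10.43 in siDNMT1, 10.83 and 10.88 in siDNMT3B, and 9.19 and 9.29 in siNTC-1 (-0.51 ± 0.07). Both genes were above siNTC-1 in both groups and furthest in siDNMT3B. Fibronectin itself, FN1, was lower by 0.38 (a difference of -0.38 ± 0.05), and the matrix proteoglycan VCAN by 0.46 (-0.46 ± 0.06). TNC, tenascin, went the other way, with 9.88 and 9.76 in siDNMT1, 9.01 and 8.88 in siDNMT3B, and 8.04 and 7.97 in siNTC-1 (0.88 ± 0.06, adjusted p = 1.7e-08). THBS1 (0.53), SPARC (0.39) and LAMC1 (0.14) were the other members called higher. The number called lower was 6 without siDNMT1 replicate 1.

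Clustered protocadherins, neuronal adhesion proteins encoded in tandem arrays on chromosome 5, had 8 of 16 members lower and 0 higher, with a median of -0.31. Among all genes 9.79% were called lower and 8.49% higher. PCDHB5 stood at 9.87 and 9.89 in siDNMT1, 10.36 and 10.31 in siDNMT3B, and 10.27 and 10.18 in siNTC-1 (-0.45 ± 0.05, adjusted p = 1.8e-05). PCDHB12 stood at 6.84 and 6.97 in siDNMT1, 7.43 and 7.61 in siDNMT3B, and 7.48 and 7.87 in siNTC-1 (-0.62 ± 0.11, adjusted p = 0.00103). In both genes siDNMT3B lay with siNTC-1 and siDNMT1 lay below. The differences of all 16 lay between -0.62 and -0.05. Members of this cluster share sequence, so probes may read several of them. The count of 8 was 5 without either siDNMT1 replicate or without siDNMT3B replicate 1, and 3 without siDNMT3B replicate 2.

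Of 28 mitosis genes, 10 were lower and 1 higher, with a median of -0.14. For this list and those that follow, the shares over all genes were 9.79% lower and 8.49% higher. CCNA2, cyclin A, stood at 10.95 on both siDNMT1 arrays, 11.43 and 11.46 in siDNMT3B, and 11.35 and 11.31 in siNTC-1 (-0.49 ± 0.05, adjusted p = 1.3e-06). TPX2, a spindle factor, was the member called higher, with 11.38 and 11.34 in siDNMT1, 10.90 and 10.90 in siDNMT3B, and 11.44 and 11.47 in siNTC-1 (0.46 ± 0.04, adjusted p = 1.8e-06). It was siDNMT3B that stood apart in TPX2 and siDNMT1 in CCNA2. PRC1 (-0.37) and AURKA (-0.39) were among the lower ones. Of 40 DNA replication genes, 7 were lower and 2 higher, with a median of -0.05. RRM2, a subunit of ribonucleotide reductase, differed by -0.40 ± 0.05 (adjusted p = 2.9e-05), and the number of replication genes called lower was 4 without siDNMT1 replicate 1. Of 25 genes of the integrated stress response, which slows translation and raises amino acid supply, 7 were lower and 1 higher, with a median of -0.14. STC2 (-0.58 ± 0.07), CHAC1, which degrades glutathione (-0.65 ± 0.12), SESN2 (-0.45 ± 0.08) and the serine synthesis enzyme PSAT1 (-0.29 ± 0.05) were lower, and DDIT4, an inhibitor of mTOR, was higher (0.43 ± 0.08). ATF4, the factor that drives this response, differed by -0.13 (adjusted p = 0.082).

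In glycolysis and hypoxia 5 of 26 genes were lower and 1 higher, with a median of -0.06, where 9.79% of all genes were lower and 8.49% higher. The glucose transporter SLC2A3 stood at 11.77 and 11.86 in siDNMT1, 12.47 and 12.48 in siDNMT3B, and 12.27 and 12.23 in siNTC-1 (-0.66 ± 0.05, adjusted p = 4.7e-08). Of 10 metallothioneins, which bind zinc and copper, 3 were higher and 0 lower, with a median of 0.14. MT1G stood at 10.40 and 10.50 in siDNMT1, 9.95 and 9.93 in siDNMT3B, and 9.65 and 9.67 in siNTC-1 (0.51 ± 0.05, adjusted p = 2.6e-06). MT1E (0.50 ± 0.08) and MT2A (0.42 ± 0.07) were the others, and these genes too are close copies. Of 25 genes of ERK feedback and immediate-early response, 2 were higher and 5 lower, with a median of 0.00. The number called lower was 3 without siDNMT1 replicate 2 and 2 without any other array of the exchange. MYC was higher by 0.60 ± 0.06 (adjusted p = 1.1e-06) and PHLDA1 differed by -0.44 ± 0.06.

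Of 34 interferon response genes and RNA sensors, 2 were higher and 0 lower, with a median of 0.02: IFITM1, given above, and IFI6 (0.52 ± 0.08, adjusted p = 0.000352). The share called higher, 5.88%, was below the 8.49% of all genes. The RNA sensors IFIH1 (0.02, adjusted p = 0.899) and RIGI (-0.26, adjusted p = 0.0529) did not pass. Of 6 retroviral envelope genes, ERVH48-1, which encodes suppressyn, was higher and the other 5 did not pass. It stood at 10.97 and 10.98 in siDNMT1, 10.14 and 10.34 in siDNMT3B, and 10.13 and 10.31 in siNTC-1 (0.73 ± 0.07, adjusted p = 1.7e-06).

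Imprinted genes had 1 of 22 higher, GRB10 (0.28), and 3 lower, ZDBF2 (-0.41), IGF2R (-0.30) and PHLDA2 (-0.52), with a median of 0.03. These shares, 4.55% and 13.6%, lay near the 8.49% and 9.79% of all genes called higher and lower. PHLDA2 lost its call without siDNMT1 replicate 1 (-0.33, adjusted p = 0.0704). Of 21 readers of methylated DNA and silencing factors, 1 was higher and 5 lower, with a median of -0.01. MBD4, a glycosylase that repairs mismatches at CpG sites, differed by -0.27 ± 0.05 and the Polycomb enzyme EZH2 by -0.21 ± 0.05. The EZH2 call was lost without siDNMT1 replicate 1 (-0.18, adjusted p = 0.0542), and without that array the number called lower in the list was 1. Of 22 genes of the p53 response, 5 were higher and 3 lower (22.7% and 13.6%), and the p53 target CDKN1A differed by -0.01. Of 20 genes of cholesterol and fatty acid synthesis, 5 were higher and 1 lower, among them NSDHL (0.26 ± 0.04), and 2 were called higher without siDNMT1 replicate 2 or either siDNMT3B replicate. The number of p53 response genes called higher was 3 without either siDNMT1 replicate and 1 without siDNMT3B replicate 1.

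**Figure D3:**
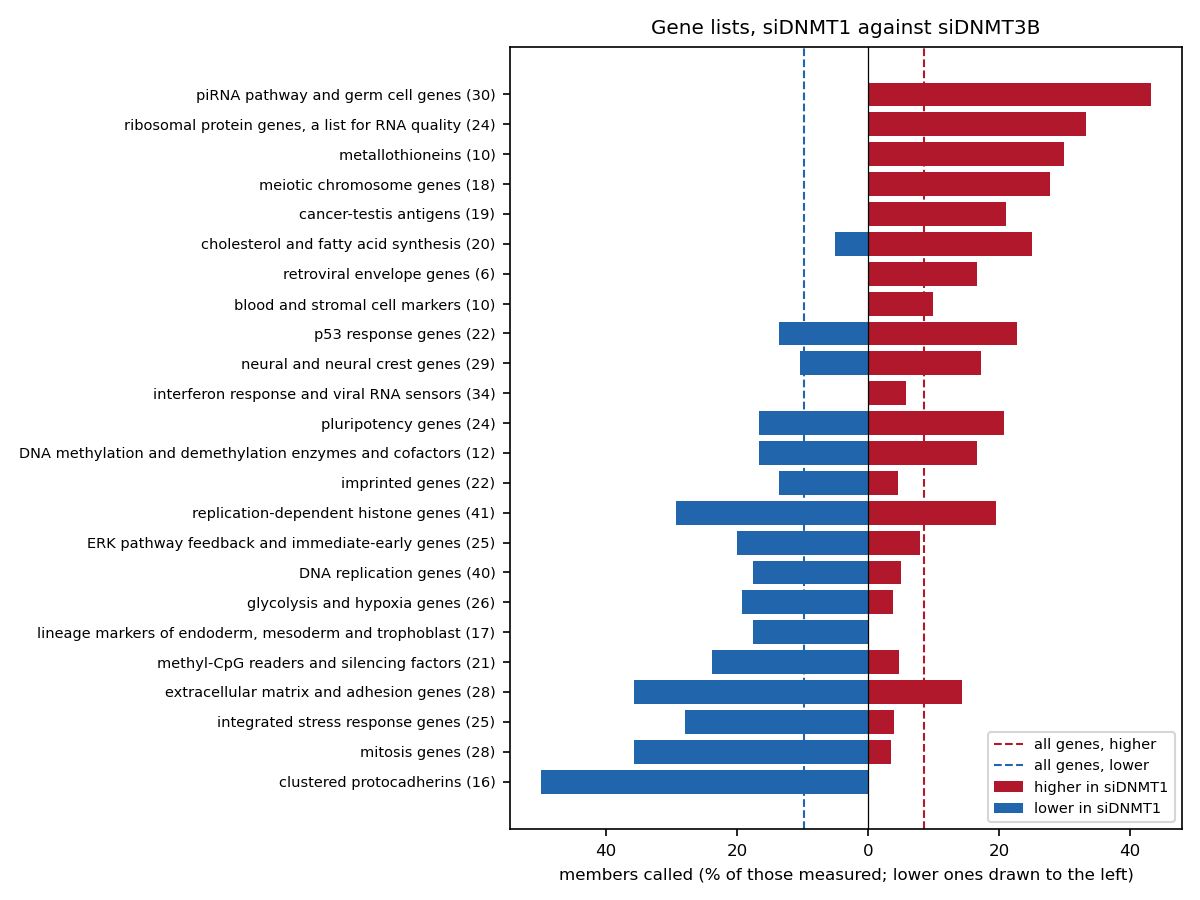
For each gene list the bars give the percentage of its measured members (their number in brackets) called higher in siDNMT1 than in siDNMT3B, to the right in red, and called lower, to the left in blue. Dashed lines mark the shares over all genes, 8.49% and 9.79%; piRNA and germ cell genes reach 43.3% higher and 8 of 16 clustered protocadherins are lower.

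The exchange of DNMT1 siRNA for DNMT3B siRNA was then read in cells that also received DNMT3A siRNA, siD1+3A against 3A+3B, 4 arrays that the first exchange did not use. These arrays lay on the other side of the first principal component from those of the first exchange. That side also held groups without DNMT3A siRNA, namely siNTC-2, siD1+3B and 3B+3L. In changes between the exchanges, DNMT3A siRNA and this split of the arrays cannot be told apart. The depletions were shallower there, with log2 differences of -0.92 ± 0.05 for DNMT1 and 0.65 ± 0.06 for DNMT3B. There 1686 genes were called (9.15%), 911 higher (4.95%) and 775 lower (4.21%). Of the 148 genes higher by 1.5-fold or more in siDNMT1 against siDNMT3B, 56 were called higher in siD1+3A against 3A+3B (37.8%), 12 were called lower and 80 were not called. Of the 91 lower by 1.5-fold or more, 17 were called lower (18.7%) and 0 higher. In the other direction, of 27 genes higher by 1.5-fold or more in siD1+3A (0.147%), 19 were called higher in siDNMT1 (70.4%), and of 62 lower (0.337%), 21 were called lower (33.9%). Over all calls 423 genes were called the same way in both exchanges, 206 higher and 217 lower, and 177 in opposite directions. The differences correlated at r = 0.17 across the 18417 genes, which are not independent replicates.

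Some germ cell and histone genes were called higher in both exchanges. H3C11 stood at 9.77 and 9.64 in siD1+3A and 7.63 and 7.49 in 3A+3B (2.15 ± 0.11, adjusted p = 1.4e-09), and its difference did not pass the test between the exchanges (0.40 ± 0.16, adjusted p = 0.124). GTSF1 stood at 8.36 and 8.45 in siD1+3A and 7.10 and 7.03 in 3A+3B (1.34 ± 0.08, adjusted p = 5.6e-09). That difference was smaller by 0.68 ± 0.11 than in the first exchange (adjusted p = 0.000783). HORMAD1 differed by 1.19 ± 0.16, MAEL by 1.08 ± 0.11 and H1-5 by 1.29 ± 0.12. Of the 48 piRNA, germ cell and meiotic genes, 9 were called higher in both, against 206 of all genes (1.12%). TDRD1 (0.19, adjusted p = 0.128), STAG3 (0.03, adjusted p = 0.899) and PIWIL2 (0.16, adjusted p = 0.243) did not pass in the second exchange. For TDRD1 and STAG3 the change between exchanges passed, at 0.70 ± 0.11 and 0.66 ± 0.14. DPPA3 differed by 0.39 ± 0.05, smaller by 0.83 ± 0.07. Of the 15 largest rises, 12 were called the same way, the siRNA target DNMT3B among them. For 13 of the 15 the difference itself changed between the exchanges. The 15 were chosen by their size in the first exchange, and that choice favours a smaller difference in the second.

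Genes that were lowest in siDNMT3B did not all go the same way. TFAP2A stood at 11.74 and 11.73 in siD1+3A and 11.92 and 11.92 in 3A+3B, a difference of -0.18 ± 0.05 in place of 1.17 (adjusted p = 0.0311; the change was 1.36 ± 0.07, adjusted p = 3.4e-09). The reversed sign of TFAP2A lost its call without any 1 of these 4 arrays, with values of -0.19 to -0.18. STMN2 (-0.20 ± 0.04, adjusted p = 0.0078) and OTX2 (-0.32 ± 0.05, adjusted p = 0.000535) also differed in the opposite direction, and IFITM1 did not pass (0.10, adjusted p = 0.211). The change between the exchanges was 1.18 ± 0.06 for STMN2, 0.92 ± 0.07 for OTX2 and 0.84 ± 0.07 for IFITM1. NRP2 (0.26, adjusted p = 0.0772) and SNAI2 (0.12, adjusted p = 0.574) were above 0 without passing, and DAZL was called higher (0.38 ± 0.11, adjusted p = 0.0309). The DAZL call was lost without siD1+3A replicate 2 (0.16, adjusted p = 0.451) or 3A+3B replicate 1 (0.26, adjusted p = 0.315), and with only the groups compared (adjusted p = 0.182). MAP2 was also called higher, by 0.39 ± 0.09, and lost this call without 3A+3B replicate 1 (0.37, adjusted p = 0.0776) or siD1+3A replicate 2 (0.36, adjusted p = 0.0858). All 15 largest falls changed between the exchanges, a change that their choice by size in the first exchange favours. Of them 6 were called lower in both: the siRNA target DNMT1, TXNIP (-0.82 ± 0.07), DSP (-0.57 ± 0.07), BSG (-0.41 ± 0.06), HAP1 (-0.40 ± 0.11) and RHOB (-0.34 ± 0.07). TXNIP averaged 11.25 in siD1+3A, 12.07 in 3A+3B and 12.2 in siNTC-2. HAP1 lost the second call without either 3A+3B replicate (-0.35 and -0.46) or without siD1+3A replicate 2 (-0.29), and RHOB without siD1+3A replicate 2 (-0.32, adjusted p = 0.0555).

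Over all genes the change between the exchanges was called for 2185 (11.9%), toward a higher value in siDNMT1 against siDNMT3B for 985 (5.35%) and a lower one for 1200 (6.52%). In siD1+3A against 3A+3B, 4.95% of all genes were called higher and 4.21% lower. Of the 25 integrated stress response genes, 23 were lower and 0 higher there, with a median of -0.73. The exchange siDNMT1 against siDNMT3B gave 7 lower and 1 higher with -0.14, and for 20 of the 25 the change was called, toward a higher value. PCK2 differed by -1.50 ± 0.09 and CHAC1 by -1.28 ± 0.12. These genes also differed between the controls. PCK2 averaged 6.32 in siNTC-1, 8.99 in siNTC-2, 7.2 in siD1+3A and 8.7 in 3A+3B. CHAC1 averaged 7.68, 11.21, 9.72 and 10.99 in that order. The part of this in the change was not tested. Of the 28 mitosis genes, 10 were higher and 0 lower, and for 13 the change was called in the direction of a lower value in siDNMT1 against siDNMT3B. No protocadherin of the 16 was called in siD1+3A against 3A+3B (0 of 16, median 0.01), and for 5 the change was called. Histone genes gave 7 higher and 0 lower, and 11 changed toward a lower value in siDNMT1 against siDNMT3B.

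**Figure D4:**
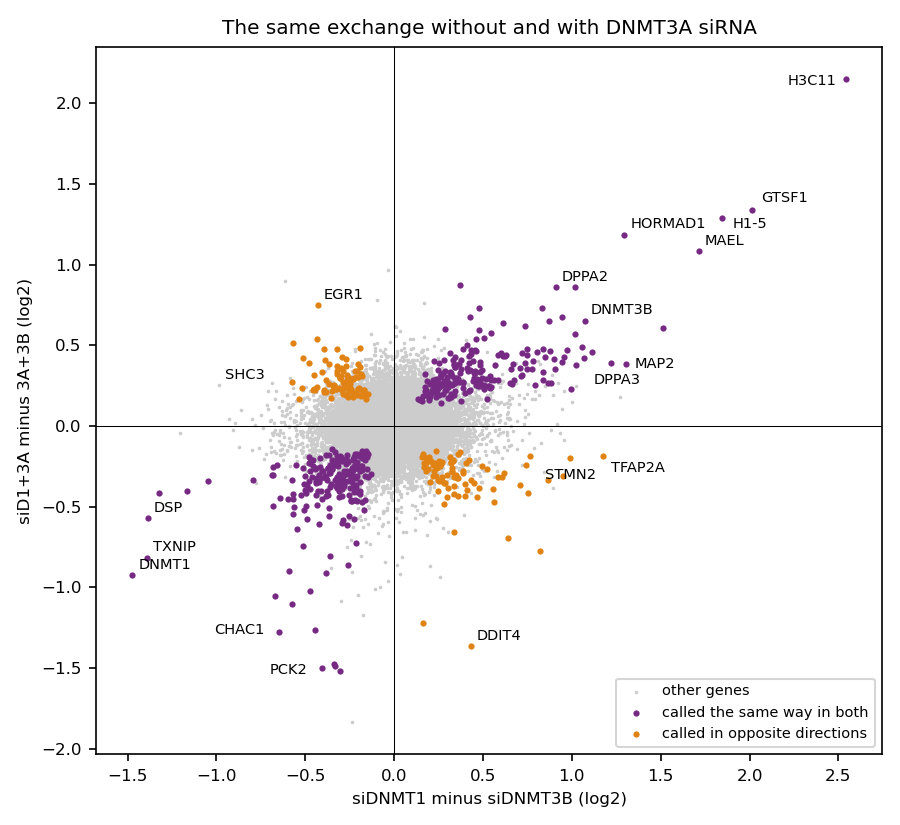
Each point is a gene, with its log2 difference siDNMT1 minus siDNMT3B on the horizontal axis and siD1+3A minus 3A+3B on the vertical axis. Purple points are the 423 genes called the same way in both and orange points the 177 called in opposite directions; H3C11, GTSF1, H1-5, HORMAD1 and MAEL lie at the upper right, and TFAP2A and STMN2 below 0 on the vertical axis.

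The 8 arrays of the 4 groups with DNMT1 siRNA had GTSF1 between 7.87 and 8.82, against 6.74 to 7.67 on the 18 arrays without it. The same separation held for H3C11 (8.78 to 9.77 against 6.90 to 7.86), H1-5 (4.99 to 6.19 against 4.19 to 4.70), MAEL (6.14 to 6.37 against 4.47 to 5.81), ZFP57 (5.56 to 6.44 against 4.82 to 5.32) and SEMA4A (7.23 to 7.66 against 6.21 to 7.15). HORMAD1 overlapped narrowly, with 5.84 to 6.52 against 4.60 to 5.85. The highest arrays without DNMT1 siRNA were those of siNTC-2 for GTSF1 and H3C11 and 3B+3L for MAEL. DPPA3 (11.73 to 12.35 against 10.51 to 12.13) and TDRD1 (4.62 to 5.60 against 4.50 to 4.73) overlapped between the groups with and without DNMT1 siRNA. Other genes of the 15 largest rises overlapped too, among them SLC38A1 (5.27 to 6.68 against 4.59 to 5.48) and GRIA1 (5.96 to 7.16 against 5.56 to 6.54). So did HPGD (5.55 to 6.44 against 5.21 to 5.72), CLEC4D (5.18 to 6.35 against 5.05 to 5.60), MAP2 and TFAP2A. CLEC4D averaged 6.35 in siDNMT1 and 5.25 to 5.42 in the combinations with DNMT1 siRNA. With DNMT3B siRNA no such separation was seen for MAP2 or STMN2. MAP2 lay between 6.54 and 7.74 on the 12 arrays with DNMT3B siRNA and between 7.28 and 9.05 on the 14 without. STMN2 was lowest in siDNMT3L (9.26 and 9.27) and next in siDNMT3B (9.71 and 9.75). TFAP2A was lowest in siDNMT3B, at 10.49 and 10.47, with siDNMT3L next at 11.14 and 11.03, and highest in siNTC-2 at 12.44 and 12.47. BSG averaged 10.06 in siDNMT1, 11.09 to 11.33 in the 3 combinations with DNMT1 siRNA and 11.38 to 11.83 in the other 9 groups. These levels include the arrays of the first exchange and are given without a test.

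**Figure D5:**
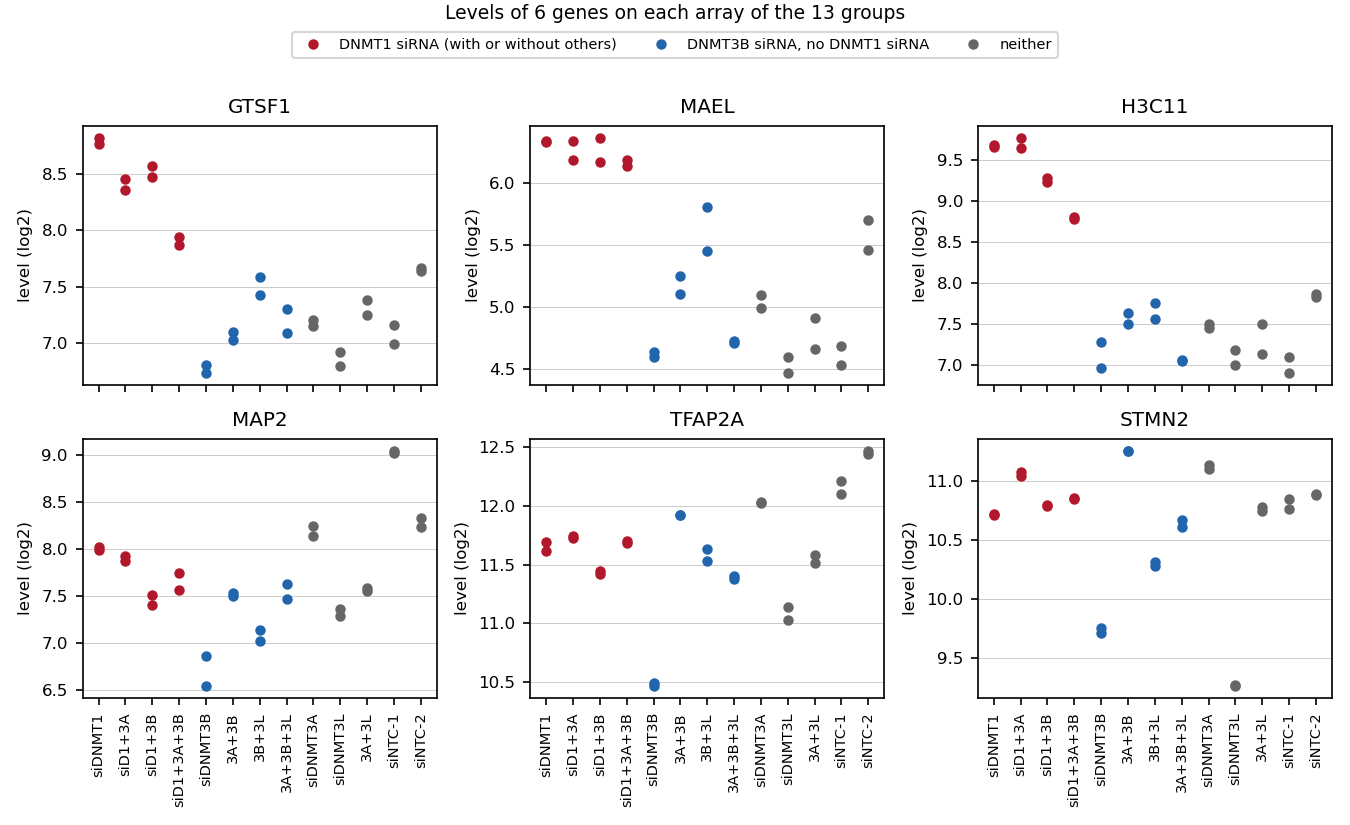
The log2 level on each array is shown for 6 genes in all 13 groups, with groups that received DNMT1 siRNA in red, groups with DNMT3B but no DNMT1 siRNA in blue and the rest in grey. Red points stand above all others for GTSF1, MAEL and H3C11; for TFAP2A the siDNMT3B arrays are the lowest and for STMN2 the siDNMT3L arrays.

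The 148 genes higher in siDNMT1 by 1.5-fold or more had a median siNTC-1 level of 6.78 and the 91 lower one of 7.38, against 6.68 over all genes. A promoter was in the RefSeq table for 117 of the 148, 73 of the 91 and 14237 of all genes. Their 300 bases held a median of 17 CpG sites in the higher set and 25 in the lower set, against 23 over all genes, and a ratio of observed to expected CpG of 0.6 or more was found for 53%, 75.3% and 67.6%. Of the 148, 10 lie on chromosome X (6.76%), of the 91 none (0 of 91), and of all genes 3.77%. These shares are descriptions and were not tested.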

How the data were processed

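RNA of NCCIT cells was read on 26 Affymetrix Human Gene 1.0 ST arrays, from 250 ng of total RNA. The deposited table holds 33297 rows of normalized log2 values that the authors made. The submitters' processing notes name Partek, and no source here states its role, the normalization or the background correction. That the scale is log2 was inferred because values span 3.04 to 14.87, and array medians lay between 6.28 and 6.33. Of the rows, 19460 carry exactly 1 gene symbol, 1754 several and 12083 none. The row with the highest mean was kept for each symbol, which gave 18417 genes.

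Groups and replicate numbers came from the sample titles. Group means of all 13 groups were fitted with limma 3.58.1 in R 4.3.3 (lmFit, eBayes), with p-values adjusted by Benjamini-Hochberg over all genes. The fit was tested on simulated data. The genes named were the 4 targets, the 15 largest rises and 15 largest falls, up to 4 members of each list by adjusted p with others needed to describe it, the 5 largest in each direction called the same way in both exchanges, and the 3 largest changes in each direction between exchanges. The 15 rises and 15 falls were taken from genes called at 1.5-fold or more with both siDNMT1 arrays beyond both siDNMT3B arrays. STMN2, IFITM1 and OTX2 are named as list members. The alternatives were a filter on the 40% dimmest genes, quantile normalization, a trended robust prior, array weights, the replicate block, every row with 1 symbol, only the groups compared, a test against a 1.2-fold minimum, and each array left out. A fit of 8 arrays was added after seeing the data. Members and lists were chosen with earlier results of these data known. Same-numbered arrays of different groups deviated together with r of 0.02 to 0.11, so the numbers were not taken to pair the arrays. The number of arrays limits the precision. Promoters and gene starts came from RefSeq (GRCh38.p14).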

Additional observations from a re-analysis of the deposited data

Results flagged for a closer look

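The difference siDNMT1 minus siDNMT3B was set against siD1+3A minus 3A+3B in the fit over all genes, and the change between the exchanges passed the test for 2185 genes. The changes given are the 3 largest in each direction. In all of them DNMT3A siRNA and the split of the arrays on the first principal component cannot be told apart. DDIT4 changed by 1.79 ± 0.11 (adjusted p = 2.5e-08), with 0.43 in siDNMT1 minus siDNMT3B and -1.36 in siD1+3A minus 3A+3B. INHBE, an activin subunit gene, changed by 1.60 ± 0.18, with -0.24 (adjusted p = 0.212) and -1.83 in the same order. LINC01356 changed by 1.60 ± 0.29, with 0.82 and -0.78. It lay near the floor of the array, at 5.05 and 5.48 in siDNMT1, 4.32 and 4.57 in siDNMT3B, 4.81 and 4.18 in siD1+3A, and 5.4 and 5.15 in 3A+3B. H2AC14, a histone gene with near-identical copies, changed by -1.51 ± 0.37 (adjusted p = 0.0134), with -0.61 (adjusted p = 0.122) and 0.90 (adjusted p = 0.041). SHC3 changed by -1.24 ± 0.12, with -0.98 and 0.25 (adjusted p = 0.077). EGR1, an immediate-early transcription factor, changed by -1.18 ± 0.11, with -0.43 and 0.75. Mean levels in siNTC-1 and siNTC-2 were 6.87 and 9.5 for DDIT4, 5.71 and 8.68 for INHBE, and 4.67 and 4.28 for LINC01356. They were 5.15 and 6.61 for H2AC14, 7.02 and 7.0 for SHC3, and 8.22 and 7.02 for EGR1. H2AC14 lost its call without 3A+3B replicate 2 (-1.18, adjusted p = 0.0764) and without siDNMT1 replicate 2 (-1.02, adjusted p = 0.0632).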

How the results depend on the processing

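The 28 largest rises and falls other than the targets kept direction and call in 357 of 357 alternative results. They were chosen as called, large and non-overlapping in the same arrays that the alternatives reuse, and that choice favours this outcome. The number of genes called in siDNMT1 against siDNMT3B, 3366 in the fit of all arrays, was 543 with only the groups compared, 239 in the test against a 1.2-fold minimum, 1046 with the 8 arrays added after seeing the data, and 2189 to 2504 with an array left out. The number at 1.5-fold or more, 239, moved by less than 1.5 times under these alternatives. Counts from different fits need not be of the same genes. For siD1+3A against 3A+3B, the number called, 1686, was 3013 with array weights, 1061 with only the groups compared and 645 to 808 with an array left out. The number of changes between exchanges, 2185, was 1123 with only the groups compared and 1363 to 1928 with an array left out. Against siNTC-1, the calls with array weights, with only the groups compared and with the 8 arrays were 1899, 671 and 1369 in siDNMT1 (3653) and 2765, 1219 and 2014 in siDNMT3B (4465). The cause was not tested. With the replicate number as a block, 3305 genes were called and 239 at 1.5-fold or more, and the numbers do not pair the arrays. With an array left out, the difference siDNMT1 minus siDNMT3B ranged from -0.18 to 0.0 for DNMT3L, from -0.01 to 0.22 for ERVMER34-1, from -0.18 to 0.0 for ERVV-1 and from -0.41 to 0.02 for CD34. In siD1+3A minus 3A+3B it ranged from -0.20 to 0.11 for ST8SIA2, -0.05 to 0.14 for TAGLN3, -0.09 to 0.04 for NEFH, -0.07 to 0.11 for FBP1 and -0.06 to 0.14 for LOC107987020. None of these 9 differences was called with all arrays, and CD34, a blood stem cell marker, was called without siDNMT3B replicate 2 (-0.41, adjusted p = 0.0161). With 2 arrays a group, a fit that leaves out 1 array takes the lone array to vary like the other groups.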
